A study of Mus musculus with 15 samples.

Results

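Ncoa4, the cargo receptor that delivers ferritin to the lysosome, is described here with 7 further genes of iron handling in mouse skin adipocytes. The 8 genes were the ferritin receptor Ncoa4, the ferritin chains Fth1 and Ftl1, the uptake genes Trf, Tfrc and Slc11a2, the exporter Slc40a1 and the heme oxygenase Hmox1. They were taken by symbol from the 35373 genes of the deposited raw count table, and all 8 passed the low-count filter that kept 16935 genes. Ncoa4 was chosen by its measured values, a low level in the comparison at 2 days of Wnt activation, and the other 7 for their known roles beside it. Values from that comparison are therefore given as a description, with their standard error (SE) and no test.

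Bulk RNA sequencing was done on intradermal adipocytes, the fat cells embedded in the skin, recovered as the floating layer of collagenase-digested dorsal skin. Activated mice carried EngrailedCre/+; Rosa26rtTA/Rosa26rtTA; TetOBcat/+, a doxycycline-dependent β-catenin transgene switched on where the Engrailed-driven recombinase had acted, and were taken after 2 days at postnatal day 23 (P23, n = 4) or after 5 days at P26 (n = 5). Controls carried +/+; Rosa26rtTA/Rosa26rtTA; TetOBcat/+, the same 2 transgenes without the recombinase, and were taken at P23 (n = 3) or P26 (n = 3). Every mouse, controls included, was given doxycycline, at 6 g/kg of food and 2 mg/mL of drinking water. Replicates are labelled as biological, and the p-values measure the spread between these samples. EngrailedCre acts in a skin lineage and not in adipocytes alone, and every cell type in the floating layer contributes to a bulk library.

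Iron enters most cells bound to transferrin, which is taken up by the transferrin receptor and released from endosomes through the divalent metal transporter. Iron that is not used is stored in ferritin, a shell of heavy and light chains, and NCOA4 binds the heavy chain and carries ferritin to the lysosome, where the iron is set free (ferritinophagy). Iron regulatory proteins bind a stem-loop, the iron-responsive element, in the untranslated regions (UTRs) of several of these transcripts when iron is scarce. They block translation where it lies in the 5′ UTR and protect the transcript from decay where it lies in the 3′ UTR, so levels of ferritin protein can move without a move in its transcript.

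Total counts ran from 17270221 to 26945774 at 2 days, from 29441672 to 32617857 in P23 controls, from 11383421 to 38501753 at 5 days and from 15700686 to 30799583 in P26 controls. All 14 adipocyte markers were found in the table, and their summed level ran from 12423 CPM (a count relative to the library size, scaled by the trimmed mean of M values) to 89753 CPM. Their lowest sums were in P26 control replicate 1, 5-day replicate 5, 5-day replicate 1 and the library labelled 2-day Wnt replicate 1. The authors' sample sheet lists that last library as a control, 31.7% of its counts were mitochondrial, and its level of Axin2, a feedback inhibitor induced by Wnt signalling, was 10.01 CPM, whereas 2-day replicates 2 to 4 held 27.6, 65.0 and 43.5 CPM. Among controls, P23 replicate 1 and P26 replicate 1 held Axin2 at 39.8 and 34.8 CPM, against 4.17 to 9.07 CPM in the other controls. Both were also the only controls with Y-linked transcripts above 2 CPM, whereas all Wnt libraries other than 2-day replicate 1 held them at 44.8 CPM or more, so sex and group are largely joined. Results are therefore also given without these 3 libraries, a choice made after their values were seen.

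Taken per kilobase of the first annotated transcript (GENCODE M21), the 8 genes spanned a wide range of levels. Fth1 had the highest median over the 15 libraries, 3357 CPM per kb, followed by Trf at 1914 and Ftl1 at 1792 CPM per kb. Hmox1 stood at 178 CPM per kb. Ncoa4, Slc11a2, Tfrc and Slc40a1 were scarce by comparison, at 8.41, 7.22, 4.24 and 2.52 CPM per kb. With the union of all exons as the length, Fth1 stood at 899, Ftl1 at 1295 and Trf at 1482 CPM per kb, so the order of these 3 depends on which transcript is made. The same holds for Slc11a2, Tfrc and Ncoa4, which then stood at 3.44, 3.36 and 3.00 CPM per kb. From library to library the ferritin transcripts varied least, with a highest value 2.92 times the lowest for Fth1 and 3.10 times for Ftl1, and Trf varied most among the genes without zeros, by 14.5 times.

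**Figure D1:**
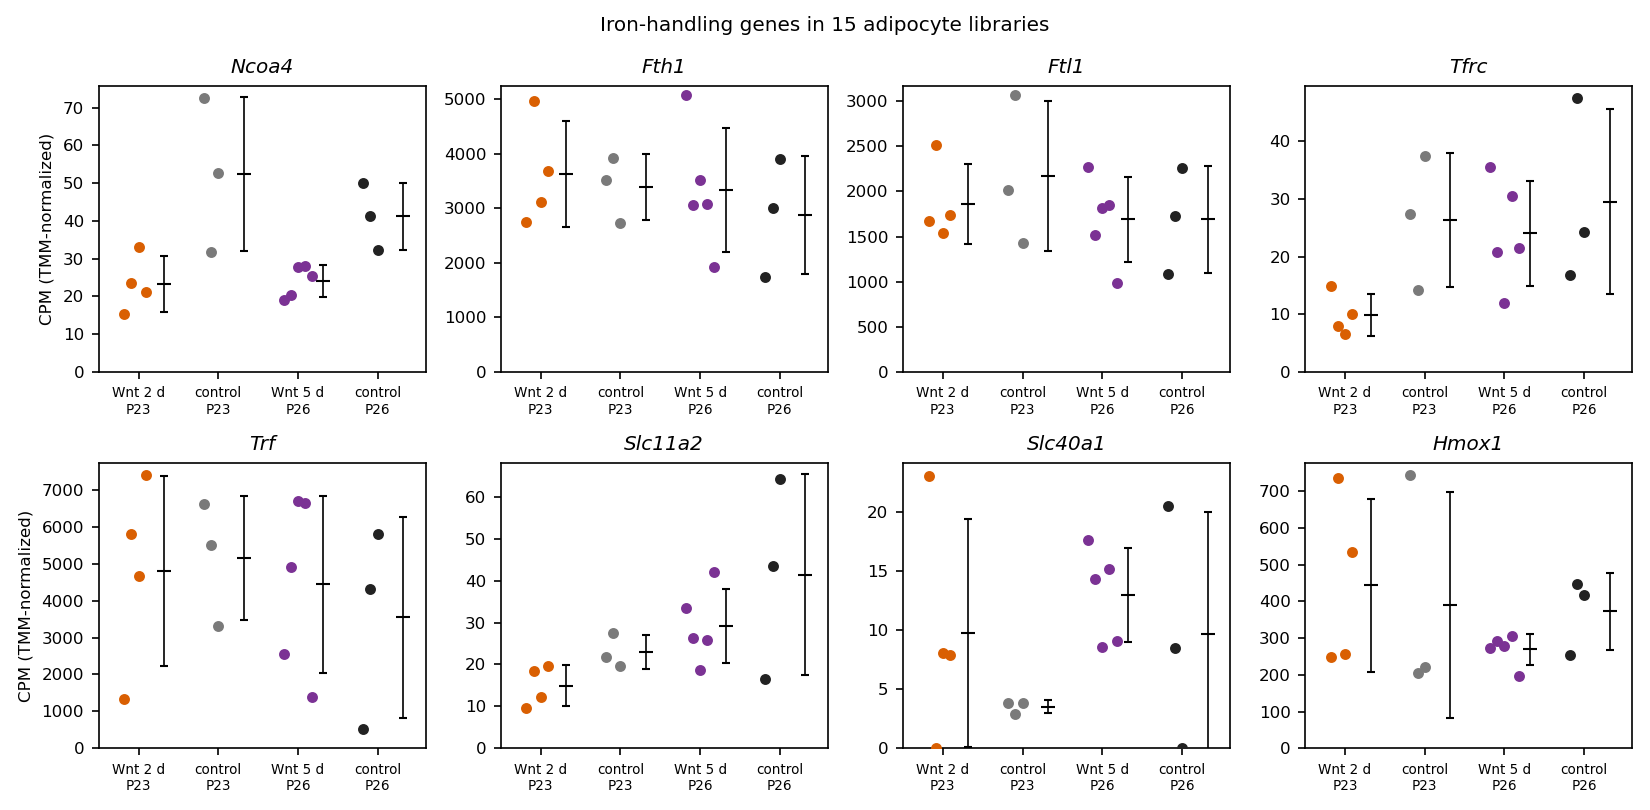
CPM of each gene in the 15 libraries, 1 point a library, by group (Wnt 2 days at P23, P23 controls, Wnt 5 days at P26, P26 controls), with mean and SD at the right of each group. Ncoa4 lies at 28.1 CPM or below in all 5-day libraries and at 32.4 CPM or above in all P26 controls, while the groups overlap for both ferritin chains.

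Ncoa4 (ENSMUSG00000056234, GRCm38 chr14:32159865-32179855, plus strand) was the gene of the 8 whose 5-day libraries all lay on 1 side of their controls. At 5 days it stood at 19.05, 20.4, 27.7, 28.1 and 25.3 CPM, against 50.1, 41.3 and 32.4 CPM in the P26 controls. Every 5-day library was below every P26 control, an arrangement that 2.25% of all genes tested showed in this direction. None of the 8 was higher in every 5-day library, as 3.39% of all genes were. Means were 24.1 ± 4.18 CPM (SD, n = 5) at 5 days and 41.3 ± 8.87 CPM (n = 3) in P26 controls. The log2 fold change was -0.78 ± 0.34 (SE) and did not pass the test across all genes (edgeR quasi-likelihood, adjusted p = 0.695). No gene passed it in this comparison (0 of 16935 tested, 0%), with 1195 at an unadjusted p under 0.05, 200 called by DESeq2, 226 by limma-voom with sample weights and 11 by edgeR without the 3 doubted libraries. Without the 3 doubted libraries, the log2 fold change of Ncoa4 at 5 days was -0.60 ± 0.36 (adjusted p = 0.788). Other measures differed between these groups too. The mitochondrial share of counts was 9.20% to 16.6% at 5 days, against 3.69% to 7.93% in P26 controls, also without overlap. Keratinocyte markers summed to 67.3 to 1240 CPM at 5 days, against 994 to 8374 CPM in P26 controls, with all 11 lower in the fit and none at 0 throughout a group. Stromal markers summed to 15766 to 81316 CPM at 5 days, against 5660 to 25137 CPM in P26 controls, with all 10 higher and none at 0 throughout. Their part in the level of Ncoa4 was not tested.

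At 2 days, the comparison that selected it, Ncoa4 stood at 15.4, 23.6, 33.1 and 21.1 CPM, against 72.7, 31.8 and 52.7 CPM in the P23 controls. The groups overlapped, since 2-day replicate 3 lay above P23 control replicate 2. The lowest value of all, 15.4 CPM, came from the library labelled 2-day Wnt replicate 1, and the highest, 72.7 CPM, from P23 control replicate 1. On the log2 scale the fold change was -1.17 ± 0.36 (SE), and -0.72 ± 0.40 without the 3 doubted libraries. Over all genes 0 of 16935 passed in this comparison (0%), with 875 at an unadjusted p under 0.05, 149 called by DESeq2 and 2 by edgeR without those 3 libraries. With that 2-day library counted as a control, as in the sample sheet, it was -0.74. The controls with Y-linked transcripts, at 72.7 and 50.1 CPM, held the highest Ncoa4 of their age, above all 8 Wnt libraries with such transcripts. Both controls are among the 3 doubted libraries, and the part of sex in the level of Ncoa4 was not tested. A fit with the Y-linked level as a covariate gave -1.43 at 2 days and -1.22 at 5 days. Within groups this covariate differs mainly through the 3 doubted libraries, so the fit cannot separate sex from whatever sets those libraries apart. The difference between the 5-day and 2-day effects was 0.40 ± 0.50. Of the 50-base windows of Ncoa4 transcripts, 39.1% also occur in Gm6768, which was not analysed here, so reads of the pair could have been divided by the authors' counting.

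**Figure D2:**
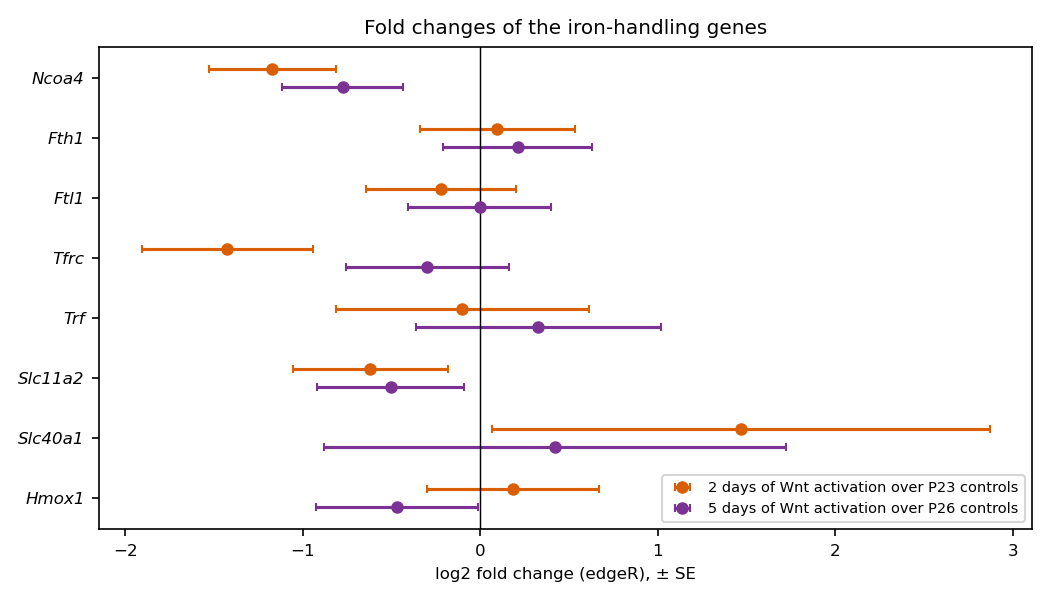
log2 fold change (edgeR, ± SE) of each gene after 2 days of Wnt activation over P23 controls and after 5 days over P26 controls. Ncoa4 is at -1.17 and -0.78, while both ferritin chains lie within 0.22 of 0.

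Ferritin, the cargo of NCOA4, is built from the products of 2 genes. Fth1 (ENSMUSG00000024661, chr19:9980598-9985098, plus strand) encodes the heavy chain, which oxidises iron as it enters the shell, and Ftl1 (ENSMUSG00000050708, chr7:45457944-45459884, minus strand) the light chain, which helps to build the mineral core. Iron-responsive elements were searched in the annotated UTRs because they tie ferritin, Tfrc and Slc40a1 to the same regulatory proteins. The search asked for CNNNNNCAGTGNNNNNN on the sense strand with 5 paired bases on each side of the loop CAGTGN (G-T pairs allowed), and the 29-base sites found are printed here with the loop in capitals (GENCODE M21 transcripts, GRCm38).
Fth1 5′ UTR, chr19:9982732-9982760, plus strand: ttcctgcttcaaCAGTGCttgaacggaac
Ftl1 5′ UTR, chr7:45459779-45459807, minus strand: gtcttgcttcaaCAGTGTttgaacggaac
Slc40a1 5′ UTR, chr1:45925465-45925493, minus strand: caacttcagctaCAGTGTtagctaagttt
Tfrc 3′ UTR, chr16:32631219-32631247, plus strand: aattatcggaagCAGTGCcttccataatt
Tfrc 3′ UTR, chr16:32631598-32631626, plus strand: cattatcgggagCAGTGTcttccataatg
Tfrc 3′ UTR, chr16:32631663-32631691, plus strand: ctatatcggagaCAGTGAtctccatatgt
Tfrc 3′ UTR, chr16:32631710-32631738, plus strand: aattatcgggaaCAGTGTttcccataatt

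The pattern was found in the 5′ UTR of 28 of 20520 genes (0.136%) and in the 3′ UTR of 127 of 20884 genes (0.608%). This pattern was not found in the annotated UTRs of Ncoa4, Trf, Hmox1 or Slc11a2. It required unbroken pairing beside the loop, so an element with an unpaired or mismatched base there would be missed. Absence of the pattern therefore does not show that a transcript lacks an element. A match is a match of letters and does not show that a protein binds there.

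Ferritin transcripts did not differ between activated and control libraries beyond their spread. Fth1 stood at 5076, 3068, 3518, 3083 and 1921 CPM at 5 days, against 1736, 2999 and 3897 CPM in P26 controls. The lowest values of both groups, 1921 and 1736 CPM, were in 5-day replicate 5 and P26 control replicate 1, which also had the lowest adipocyte marker sums. Fth1 had a log2 fold change of 0.21 ± 0.42 at 5 days (edgeR adjusted p = 0.999), and -0.04 without the 3 doubted libraries. Ftl1 stood at 2269, 1521, 1818, 1850 and 987 CPM at 5 days, against 1083, 1729 and 2263 CPM in P26 controls, with a log2 fold change of -0.0026 ± 0.40. At 2 days Fth1 ran from 2740 to 4959 CPM, against 2733 to 3915 CPM in P23 controls, and Ftl1 from 1535 to 2515 CPM, against 1433 to 3065 CPM. Their log2 fold changes there were 0.10 ± 0.44 and -0.22 ± 0.42. An SE of about 0.4 leaves room for sizeable changes in either direction. Both chains together took 0.320% to 0.762% of all counts in a library.

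The ratio of heavy to light chain transcripts, each per kb of its first annotated transcript, was 1.71, 2.05, 2.12 and 2.22 at 2 days, against 1.83, 1.33 and 1.99 in P23 controls. At 5 days it was 2.33, 2.10, 2.02, 1.74 and 2.03, against 1.67, 1.81 and 1.79 in P26 controls. In 4 of the 5 5-day libraries the ratio was above all P26 controls, but replicate 4 lay among them, and the groups overlapped at both ages. The Ftl1 count is uncertain: 75.0% of its 50-base windows occur in other genes, mainly in the processed copy Ftl1-ps1, whose own count was 12.6% to 16.1% of that of Ftl1. Gm10252, annotated on the opposite strand across the start of Ftl1, held 511 to 1634 CPM, and whether the authors counted by strand is not given in the sources used here.

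**Figure D3:**
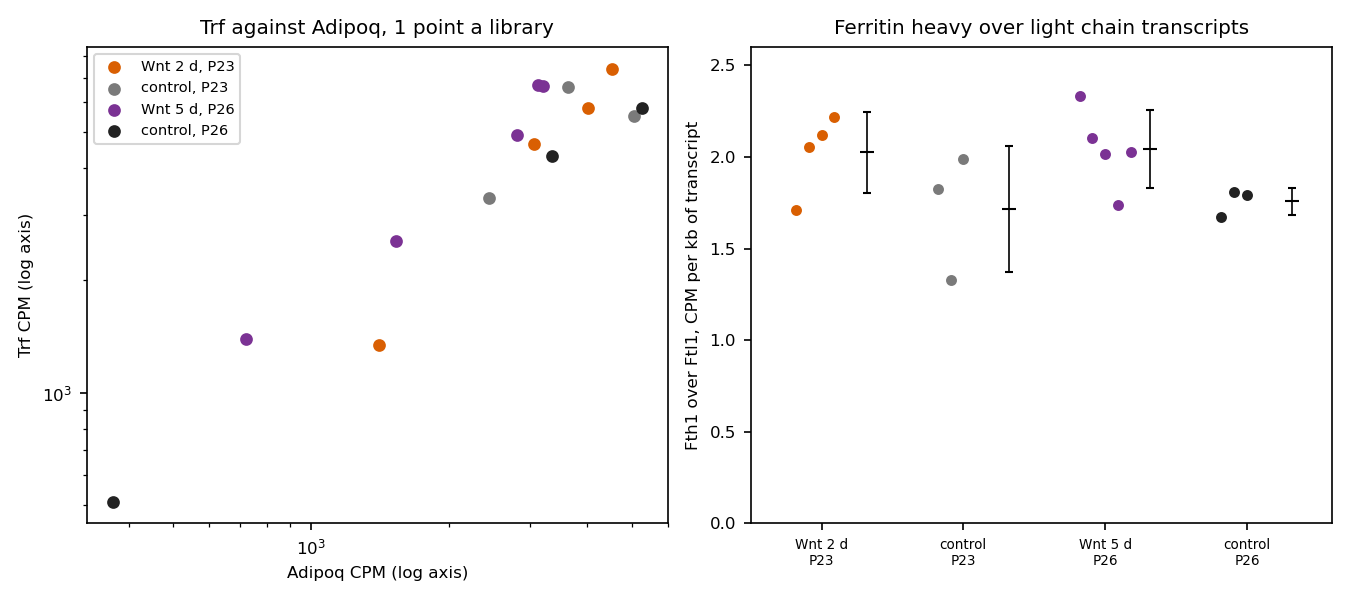
Left, Trf CPM against Adipoq CPM on log axes, 1 point a library. Right, Fth1 over Ftl1 (CPM per kb of the first annotated transcript) by group with mean and SD. The 3 libraries lowest in Adipoq are the 3 lowest in Trf, and the ratio of the ferritin chains runs from 1.33 to 2.33.

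Of the uptake genes, Trf (ENSMUSG00000032554, chr9:103204001-103230444, minus strand) encodes transferrin, the iron carrier of plasma. Trf stood at 2556, 4920, 6699, 6644 and 1391 CPM at 5 days, against 510, 4317 and 5798 CPM in P26 controls (log2 fold change 0.33 ± 0.69, edgeR adjusted p = 0.999, and -0.17 ± 0.53 without the 3 doubted libraries). At 2 days it stood at 1340, 5813, 4653 and 7394 CPM, against 6616, 5517 and 3317 CPM in P23 controls (log2 fold change -0.10 ± 0.71). The groups overlapped at both ages, and the libraries low in Trf were those low in adipocyte transcripts: P26 control replicate 1, 2-day replicate 1 and 5-day replicate 5 were the lowest 3 in Trf and also in Adipoq, which encodes the adipocyte hormone adiponectin. In a bulk library, fewer cells of a type and less RNA per cell cannot be told apart. Set against Adipoq, Trf gave ratios of 1.67, 1.75, 2.14, 2.07 and 1.93 at 5 days, against 1.38, 1.29 and 1.10 in P26 controls, and 0.955, 1.45, 1.52 and 1.63 at 2 days, against 1.82, 1.09 and 1.36 in P23 controls. At 5 days the groups did not overlap, as for 2.43% of all genes set against Adipoq in this direction. At 2 days they overlapped, and 1.47% of all genes were higher and 1.22% lower in every 2-day library on this scale. This ratio was chosen after the values were seen and has no test of its own. Of the 50-base windows of Trf, 68.3% also occur in Gm20425, which overlaps it on the same strand and was not analysed here.

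Tfrc (ENSMUSG00000022797, chr16:32608920-32632794, plus strand) encodes the transferrin receptor. At 2 days it was 14.9, 7.96, 6.51 and 9.98 CPM, against 27.3, 14.2 and 37.5 CPM in P23 controls. The groups met at 1 point, where the library labelled 2-day Wnt replicate 1 lay just above P23 control replicate 2. Tfrc had a log2 fold change of -1.42 ± 0.48 at 2 days, and -1.69 ± 0.54 without the 3 doubted libraries. At 5 days Tfrc was 35.5, 20.8, 11.97, 30.5 and 21.4 CPM, against 16.9, 47.5 and 24.2 CPM in P26 controls, with wide overlap and a log2 fold change of -0.30 ± 0.46 (edgeR adjusted p = 0.996). The 5-day minus 2-day difference was 1.13 ± 0.67 on the log2 scale, given here without a test. Red cell precursors make much Tfrc, so erythroid markers were also summed: 326 to 2033 CPM at 2 days, against 303 to 892 CPM in P23 controls, with Epb42, a membrane protein of the red cell, at 0 in both groups.

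Slc11a2 (ENSMUSG00000023030, chr15:100387898-100425072, minus strand) encodes the divalent metal transporter DMT1. At 2 days it was 9.62, 18.4, 12.2 and 19.7 CPM, against 21.8, 27.5 and 19.7 CPM in P23 controls. The 2-day libraries were all lower, though by a margin that vanishes at 3 digits, and 2.91% of all genes showed this arrangement. Its log2 fold change was -0.62 ± 0.44 at 2 days. At 5 days it was 33.4, 26.2, 18.6, 25.7 and 42.0 CPM, against 16.5, 43.5 and 64.3 CPM in P26 controls (log2 fold change -0.50 ± 0.42, edgeR adjusted p = 0.904). Without the 3 doubted libraries the 5-day log2 fold change was -0.88 ± 0.38 (adjusted p = 0.724).

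Slc40a1 (ENSMUSG00000025993, chr1:45908068-45926523, minus strand) encodes ferroportin, the exporter of iron. It stood at 17.6, 14.3, 8.59, 15.2 and 9.09 CPM at 5 days, against 20.5, 8.48 and 0 CPM in P26 controls, and at 23.01, 0, 8.11 and 7.93 CPM at 2 days, against 3.88, 2.90 and 3.80 CPM in P23 controls. A library at 0 stood in each of 2 groups, 2-day replicate 2 and P26 control replicate 3, although other libraries held 80 to 595 counts. A count of 0 there allows up to 0.136 and 0.135 CPM (3 counts each, counting error only). The log2 fold change was 1.47 ± 1.403 at 2 days and 0.42 ± 1.30 at 5 days (edgeR adjusted p = 0.999). Without the 3 doubted libraries it was 0.65 ± 1.62 at 2 days and 1.61 ± 1.59 at 5 days. Macrophages export iron through ferroportin, and the summed macrophage markers (14 genes) ran from 458 to 1391 CPM at 2 days, against 421 to 525 CPM in P23 controls. In the fit 12 of the 14 were higher and 2 lower at 2 days (median log2 fold change 1.16), and Vsig4 was at 0 throughout the 2-day group. At 5 days they ran from 603 to 2399 CPM, against 452 to 3126 CPM in P26 controls, with 3 higher, 11 lower and Vsig4 at 0 in all P26 controls. The 2-day library at 0 in Slc40a1 had the lowest macrophage sum of its group, 458 CPM, and the 2-day library highest in Slc40a1 had the highest sum, 1391 CPM, whereas P26 control replicate 1, highest in Slc40a1 among P26 controls, had the lowest sum of its group, 452 CPM. Their part in the level of Slc40a1 was not tested.

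Hmox1 (ENSMUSG00000005413, chr8:75093621-75100589, plus strand) encodes heme oxygenase 1, which frees iron from heme and is induced by heme and by oxidative stress. It stood at 273, 292, 279, 306 and 197 CPM at 5 days, against 253, 447 and 419 CPM in P26 controls. The 5-day libraries lay close together and below 2 of the 3 controls. This gave a log2 fold change of -0.47 ± 0.46 (edgeR adjusted p = 0.944). At 2 days Hmox1 split the libraries within both groups, at 248, 735, 258 and 535 CPM, against 745, 204 and 222 CPM in P23 controls. There it had a log2 fold change of 0.18 ± 0.48 with all libraries and 1.25 ± 0.43 without the 3 doubted ones, since the highest P23 control is among those left out.

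Over the 8 genes, 3 were higher and 5 lower in the activated libraries at 5 days, with a median log2 fold change of -0.15, against 0.03 over all genes tested. The same counts held at 2 days, with a median of -0.16 against 0 over all genes. None of the 8 passed the test at 5 days (0% of all genes did) in edgeR or in any alternative run. Age was compared between the control groups, P26 over P23, which share their libraries with the comparisons above. There too 0 of 16935 genes passed (0%), with 1182 at an unadjusted p under 0.05 and 286 called by DESeq2. The log2 fold change of the 8 ran from -0.54 ± 0.76 for Trf to 1.45 ± 1.47 for Slc40a1, and that of Ncoa4 was -0.34 ± 0.39 (adjusted p = 0.951). Slc11a2 stood at 16.5, 43.5 and 64.3 CPM at P26, against 21.8, 27.5 and 19.7 CPM at P23 (log2 fold change 0.85 ± 0.47, adjusted p = 0.709). None of the 8 was higher in every P26 control (6.51% of all genes) or lower in every one (5.67%).

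The 5 genes with the pattern nearest to that of Ncoa4 were sought by the root mean square difference in centred log2 CPM over the 15 libraries, among 12036 eligible genes. They were Kank1 (0.36), which encodes a regulator of the actin cytoskeleton, Usp38 (0.37), a deubiquitinating enzyme, Mt1 (0.38), the metal-binding metallothionein 1, Sypl (0.39), a vesicle membrane protein, and Btg1 (0.39), an antiproliferative factor. Mt1 stood at 275, 281, 267, 335 and 225 CPM at 5 days, against 793, 546 and 634 CPM in P26 controls, without overlap, as for 2.25% of all genes in this direction. At 2 days it ran from 162 to 566 CPM, against 390 to 568 CPM in P23 controls. The log2 fold change of Mt1 was -0.43 ± 0.38 at 2 days and -1.25 ± 0.36 at 5 days. Since the likeness was found in these same libraries, it is a description of them. The other iron genes were less alike: Hmox1 ranked 2928 and Ftl1 2998 in likeness to Ncoa4, and Slc40a1 ranked 11413.

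**Figure D4:**
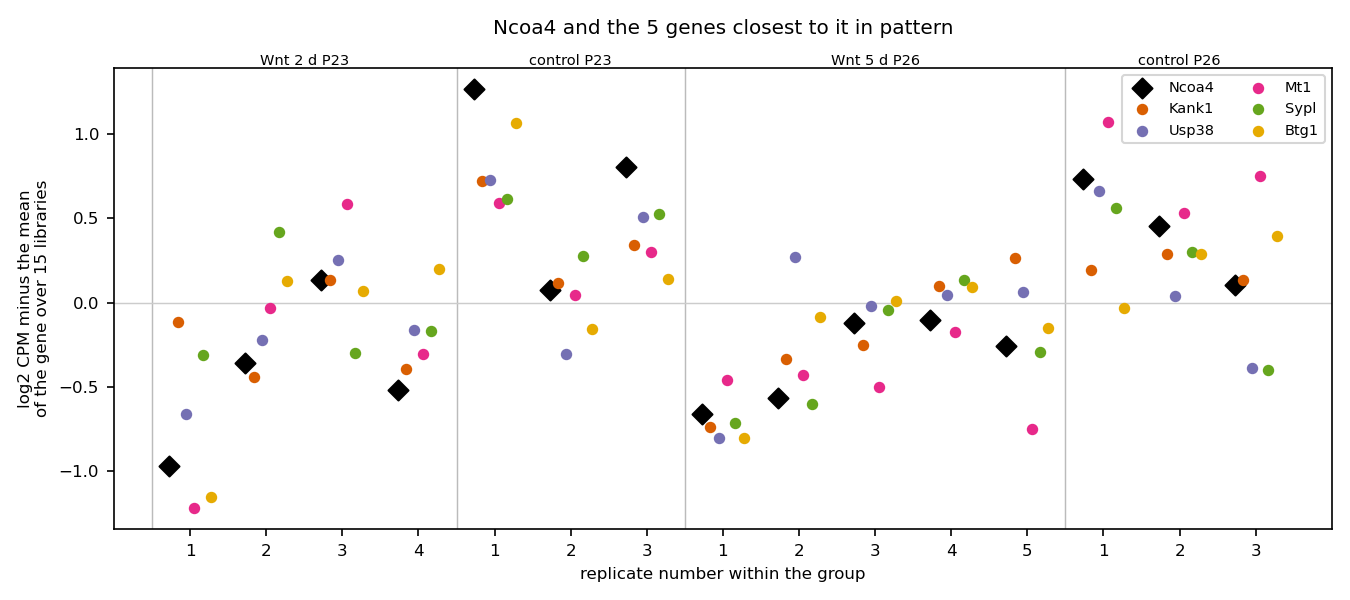
log2 CPM of Ncoa4 (diamonds) and the 5 nearest genes (circles) minus the mean of each gene over 15 libraries, 1 column a library. Ncoa4 lies above 0 in all 6 controls and below 0 in 8 of the 9 Wnt libraries, and Mt1 lies below 0 in all 5-day libraries. Ncoa4 was selected by its low level in the younger Wnt libraries, so its split is partly fixed by that choice.

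A further 94 genes in 8 lists were examined beside the 8, of which 93 were tested. They hold genes of iron and heme metabolism, and also broader regulators, autophagy genes and 12 NRF2 targets. None passed the test at either time. At 2 days 22 were higher and 71 lower than in P23 controls, with a median log2 fold change of -0.23, and at 5 days 29 were higher and 64 lower than in P26 controls, with a median of -0.15. Over all genes the medians were 0 and 0.03, and 49.4% and 51.6% of genes were higher. Of 13 genes of iron uptake and reduction 8 were higher and 5 lower at 2 days (median 0.34). At 5 days 3 were higher and 10 lower (median -0.15). Of 9 genes of iron export 2 were higher and 7 lower at 2 days (median -0.56). At 5 days 5 were higher and 4 lower (median 0.37). Higher and lower were 1 and 7 iron storage genes at 2 days, and 3 and 5 at 5 days. For iron-responsive control these were 1 and 8, then 3 and 6. For heme breakdown and transport they were 3 and 7 at both times. Of 13 heme synthesis genes 1 was higher and 12 were lower at 2 days (median -0.39), while 5 were higher and 8 lower at 5 days (median -0.12). Of 19 genes of mitochondrial iron and iron-sulfur clusters 4 were higher and 15 lower at each time, with medians of -0.42 at 2 days and -0.20 at 5 days. Of 12 target genes of NRF2, the regulator of the oxidative stress response that also drives Hmox1 and both ferritin genes, 2 were higher and 10 lower at 2 days and 3 higher and 9 lower at 5 days, with medians of -0.47 and -0.23. Fitted values of the marker lists leaned to 1 side as well. Adipocyte markers were lower in 13 of 14 genes at each time, with medians of -0.44 at 2 days and -0.35 at 5 days. Higher at both times were all 10 stromal markers (medians 1.12 at 2 days and 0.77 at 5 days), all 8 endothelial markers (0.61 and 1.08) and all 9 mitochondrially encoded transcripts (1.17 and 1.18). Of 8 Schwann cell markers 7 were higher at 2 days and 8 at 5 days, and of 6 erythroid markers tested 6 and 5 were. Keratinocyte markers were higher in 6 of 11 at 2 days and lower in all 11 at 5 days (median -2.97). In the fit, all 7 hair follicle markers tested were higher at 2 days and lower at 5 days. At 2 days the hair follicle sum was 4719 CPM in replicate 1 and 0, 8.41 and 58.8 CPM in replicates 2 to 4. P23 controls held 2.07 to 6.45 CPM. At P26, control replicate 1 held 849 CPM, while control replicates 2 and 3 held 0.561 and 0.718 CPM. Every 5-day library, at 7.77 to 278 CPM, lay above those 2, although the fitted values were lower. The part of these markers in the counts of iron genes was not tested.

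Among iron-responsive regulators, Ireb2, which encodes iron regulatory protein 2, stood at 13.8, 36.6, 25.7, 30.2 and 38.1 CPM at 5 days, against 16.2, 19.3 and 7.35 CPM in P26 controls (log2 fold change 1.01 ± 0.44, edgeR adjusted p = 0.695). Its 2-day libraries leaned the other way, at 30.1, 14.3, 17.5 and 15.6 CPM, against 33.4, 23.9 and 38.5 CPM in P23 controls (log2 fold change -0.72 ± 0.44). At 2 days the lowest of this list was Aco1, which encodes iron regulatory protein 1, at 145 to 563 CPM, against 415 to 729 CPM in P23 controls (log2 fold change -0.81 ± 0.58). In heme transport, Hpx, which encodes the heme-binding plasma protein hemopexin, stood at 2.12, 0.540, 2.21, 5.01 and 1.56 CPM at 5 days, against 11.5, 20.9 and 53.3 CPM in P26 controls. The groups did not overlap, as for 2.25% of all genes in this direction, and its log2 fold change of -3.64 ± 0.80 was the lowest of the named genes (edgeR adjusted p = 0.293). Hpx was named as the lowest of its list in this comparison, so that share does not measure how unusual the separation is. At 2 days Hpx ran from 2.34 to 11.98 CPM, against 3.95 to 23.02 CPM in P23 controls.

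Tmem14c, a mitochondrial protein needed for the last steps of heme synthesis, stood at 61.1, 30.9, 45.0, 56.0 and 25.5 CPM at 5 days, against 83.3, 81.3 and 89.4 CPM in P26 controls (log2 fold change -0.95 ± 0.33, edgeR adjusted p = 0.693). Cisd1, an iron-sulfur protein of the outer mitochondrial membrane, ran from 3.47 to 29.9 CPM at 5 days, against 30.5 to 47.4 CPM in P26 controls (log2 fold change -0.88 ± 0.49, adjusted p = 0.715). Neither gene overlapped between the 5-day and P26 control libraries, as for 2.25% of all genes in this direction. Both were named as the lowest of their lists in this comparison, so that share does not measure how unusual the separation is. Pgd, an enzyme of the pentose phosphate pathway and an NRF2 target, ran from 113 to 303 CPM at 5 days, against 52.4 to 1383 CPM in P26 controls, where replicate 1 was the lowest (log2 fold change -1.68 ± 0.65, adjusted p = 0.695). Lcn2, which binds bacterial iron carriers, ran from 0.508 to 8.28 CPM, against 6.82 to 35.6 CPM (log2 fold change -1.92 ± 0.77, adjusted p = 0.695). Steap4 is a ferrireductase of adipocytes. Among the further genes of iron uptake and reduction with an average log2 CPM of at least 1, it was lowest at 2 days (-0.67 ± 0.47) and highest at 5 days (0.58 ± 0.46). In iron storage, Tax1bp1, an autophagy receptor that works with NCOA4, had a log2 fold change of -0.54 ± 0.48 at 2 days, and Atg5, part of the autophagy machinery, one of -0.64 ± 0.38 at 5 days (adjusted p = 0.747). Gclc, which starts glutathione synthesis, stood at 19.4 to 34.2 CPM at 2 days, against 11.2 to 19.4 CPM in P23 controls, higher in every library as for 2.24% of all genes (log2 fold change 0.67 ± 0.52). It was named as the highest of its list, so that share does not measure how unusual this is. Also highest of their lists at 2 days were Steap2 (1.68 ± 1.71), Bmp6 (1.57 ± 1.62), Cd163 (1.30 ± 1.07), Fdx2 (0.64 ± 0.45), Fech (0.10 ± 0.49) and Nfe2l2 (0.08 ± 0.33). At 5 days Bmp6 (2.00 ± 1.61), Isca1 (0.53 ± 0.30), Abcb10 (0.48 ± 0.59), Gsr (0.30 ± 0.34) and Lrp1 (0.10 ± 0.50) were.

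**Figure D5:**
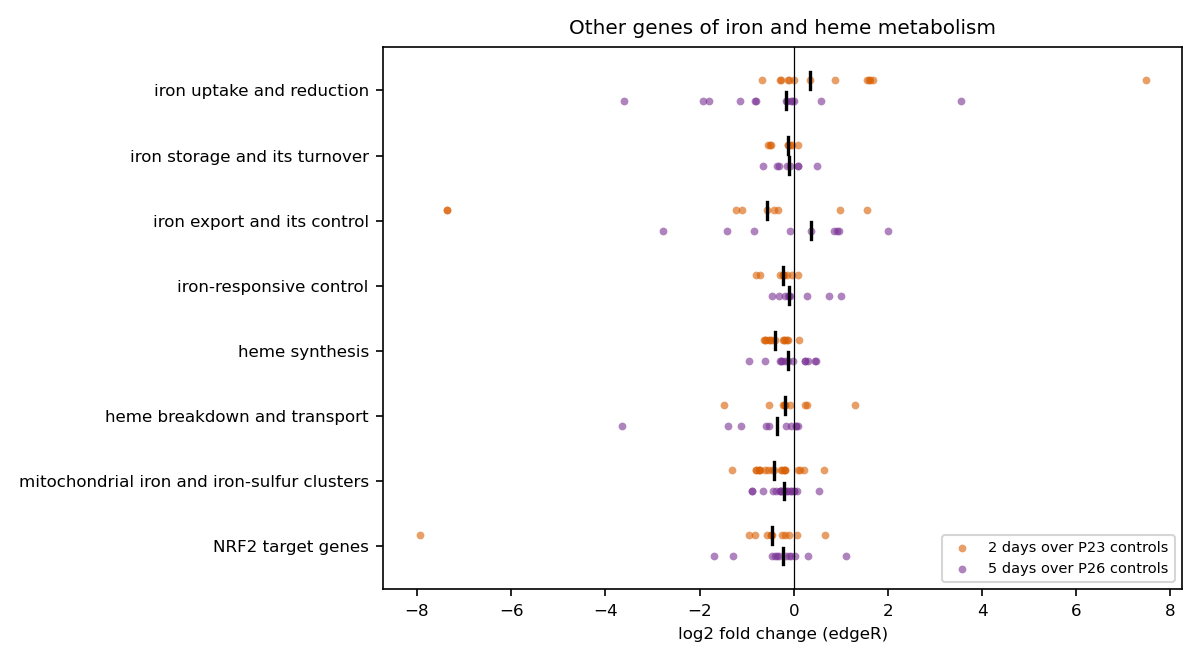
log2 fold changes (edgeR) of 93 genes in 8 lists, 1 point a gene, at 2 days over P23 controls and at 5 days over P26 controls, with the list median as a bar. Most points lie left of 0 at both times, and the values beyond 7 in size belong to Steap1, Hamp, Hamp2 and Slc7a11, whose average log2 CPM is under 1 and whose fitted values depend on the prior count.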

How the data were processed

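The authors deposited raw counts per gene for all 15 libraries, and these counts were used as deposited. Per the submitters' processing notes, Trimmomatic 0.39, SAMtools 1.9, Cufflinks 2.2.1 and DESeq2 1.40.1 were used with GRCm38. The sources used here name no aligner, counter or strand setting. Groups are those of the titles. Genes were kept by filterByExpr (16935 of 35373), scaled by TMM and fitted in 1 model of 4 group means with the robust quasi-likelihood test of edgeR 4.0.16 (R 4.3.3), two-sided, with Benjamini-Hochberg adjustment over all genes and a threshold of 0.05. The SE is the log2 fold change divided by the root of F. The 8 genes and all lists were chosen with earlier results of these data known. Named from each list were the highest and lowest log2 fold change at 2 and 5 days among genes with an average log2 CPM of at least 1. Likeness used log2 CPM with a prior count of 2. Alternatives used DESeq2 1.42.0 and limma 3.58.1. No libraries were duplicates (smallest chi-square per gene 40.6), and intervals cover counting and modelled replicate error only. The test was run on simulated data, with a pass criterion only at a spread far below that of these libraries. That check does not show how often the test would find a real change here. The level of 1 marker gene is not reported here.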

Additional observations from a re-analysis of the deposited data

Results flagged for a closer look

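Hmox1 in 5-day replicate 5 stood at 197.47 CPM, apart from the other 5-day libraries at 273 to 306 CPM. Its gap to the nearest of them took 0.737 of the range of the group on the log2 scale, above the critical value of 0.71 for 5 libraries. It was 1 of 16 groups examined, and chance gives such a gap in about 1 of 20 groups. The same library was among the lowest in adipocyte marker transcripts (12636 CPM summed), and the part of this in Hmox1 was not tested.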

How the results depend on the processing

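No gene of the 8 passed the threshold at 5 days or with age under any alternative. Ncoa4 stayed lower in the activated libraries in every alternative, with a log2 fold change of -1.43 to -0.72 at 2 days and -1.22 to -0.60 at 5 days (adjusted p 0.378 to 1), and of -1.43 to -0.86 and -0.92 to -0.60 with each library left out in turn. Genes called moved to 149 at 2 days, 200 at 5 days, 286 with age and 149 for the difference with DESeq2, to 226 at 5 days and 134 with age with limma-voom, to 4 at 5 days without 2-day replicate 1 and P26 control replicate 1, and to 2 at 2 days and 11 at 5 days without P23 control replicate 1 as well. With each library left out in turn, 0 genes were called at 2 days, 0 to 4 at 5 days (4 without P26 control replicate 2), 0 to 5 with age (5 without 5-day replicate 5) and 0 to 2 for the difference. The replicate block gave 5 calls with age and log2 fold changes of -1.17 and -0.84 for Ncoa4 at 2 and 5 days. Same-numbered libraries correlated by -0.0094 to 0.16 over 6 pairs, and 5 of the 6 correlated best with their own number. The labels give no litter or batch, so the numbers were not taken as pairs. Whether same-numbered libraries share a litter or batch was not tested.

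Signs turned as follows, and the cause was not tested. Without 2-day replicate 1 and P26 control replicate 1, Fth1 gave -0.041 at 5 days and 0.0072 with age, Trf -0.17 at 5 days and Hmox1 0.13 with age. Without P23 control replicate 1 as well, Fth1 gave -0.041 at 5 days and 0.032 with age, Trf -0.17 at 5 days and 0.18 with age, and Hmox1 1.00 with age. Hmox1 at 2 days kept its sign there but moved to 1.25. Ftl1 at 5 days gave 0.015 without a filter, 0.0029 with at least 10 counts in every library, 0.18 with the replicate block and 0.25 with the Y-linked covariate, which gave 0.10 for Tfrc. With age, limma-voom gave -1.76 for Slc40a1 and 0.022 for Hmox1, and Hmox1 gave 0.21 with the Y-linked covariate and 0.072 by the sample sheet. With each library left out, values at 5 days ran from -0.041 to 0.49 for Fth1, -0.23 to 0.26 for Ftl1, -0.58 to 0.23 for Tfrc, -0.16 to 1.61 for Slc40a1 and -0.17 to 0.88 for Trf. At 2 days they ran from -0.091 to 0.21 for Fth1, -0.47 to 0.11 for Ftl1, -0.39 to 0.21 for Trf and -0.17 to 1.06 for Hmox1. With age they ran from -0.52 to 0.0072 for Fth1, -0.39 to 0.46 for Tfrc and -0.40 to 0.81 for Hmox1. Slc40a1 gave no value with at least 10 counts in every library. At 2 days Ncoa4, Fth1, Ftl1, Tfrc and Slc11a2 kept their sign under all alternatives other than leaving out single libraries, and Slc40a1, Trf and Hmox1 did not. Groups of 3 to 5 libraries limit all of these values.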
